A study of Mus musculus with 91 samples.

Results

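Protease inhibitors were followed in bone marrow progenitors that make the granule proteases they restrain. The genes were taken by name as a family, with no threshold on their values: the serpins Serpinb1a and Serpinb6a, the cystatins Cstb, Cst3 and Cst7, and the WAP-domain genes Slpi and Wfdc21, the last listed under its older name 1100001G20Rik. All 7 were found among the 23956 gene symbols of the table. Values came from 91 single bone marrow cells of C57BL/6 mice, 46 of them sorted as GMP (granulocyte-monocyte progenitors) and 45 as CD11b+ GMP-P, with CD11b being the product of Itgam. Every cell, in either population, carried the genotype Gfi1-R412X/- Irf8+/-. Both sides of each comparison thus share an altered allele of Gfi1, a repressor gene linked to neutropenia, with the other Gfi1 allele marked as lost. They also share the loss of 1 Irf8 copy. No wild-type cells were analysed here. Both populations came from CD117-enriched marrow and a gate that took cells negative for Lineage and Sca-1, positive for CD117 and CD34, and high for CD16/32. As no animal is named, each population counted as 1 sample, and SDs below describe cells and give no error for the population. The cell labels hold a separate, unexplained identifier for each population, and any batch behind it cannot be told apart from the population.

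Neutrophil precursors store neutrophil elastase (Elane), proteinase 3 (Prtn3) and cathepsin G (Ctsg) in primary granules as active serine proteases. Serpins of the clade B family act in the cytosol as suicide substrates that trap such enzymes, while cystatins and stefins block cysteine cathepsins by sitting in their active site cleft. One link joins the branches: cathepsin C, a cysteine protease, trims and thereby activates the granule serine proteases, and cystatin F, the product of Cst7, can restrain it.

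Promoter sequences are shown for Cst7, the cystatin with the larger of the 2 lower differences in CD11b+ GMP-P, and for Cstdc4, Stfa1 and Stfa3, 3 of the 4 cystatin-family genes that were higher there. Each is the 250 bases before the RefSeq start site on build GRCm38.p6, 5′ to 3′ on the gene's strand, Cst7 at chr2:150570165-150570414 (plus strand), Cstdc4 at chr16:36183962-36184211 (plus), Stfa1 at chr16:36276898-36277147 (plus) and Stfa3 at chr16:36455393-36455642 (minus). Capitals mark matches, on either strand, to letters recognised by myeloid transcription factors: TTGCNNAA (C/EBP), GAGGAA (PU.1), TGTGGT (RUNX) and AAATCA (GFI1).
Cst7: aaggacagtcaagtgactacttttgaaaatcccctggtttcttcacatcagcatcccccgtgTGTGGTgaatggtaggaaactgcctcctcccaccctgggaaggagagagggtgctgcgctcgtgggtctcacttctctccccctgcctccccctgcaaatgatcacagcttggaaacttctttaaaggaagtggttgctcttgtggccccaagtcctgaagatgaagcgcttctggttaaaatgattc
Cstdc4: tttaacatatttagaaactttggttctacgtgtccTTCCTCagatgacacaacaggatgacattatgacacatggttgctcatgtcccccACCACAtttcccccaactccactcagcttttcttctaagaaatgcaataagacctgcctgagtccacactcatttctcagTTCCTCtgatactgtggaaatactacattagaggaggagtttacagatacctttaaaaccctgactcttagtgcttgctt
Stfa1: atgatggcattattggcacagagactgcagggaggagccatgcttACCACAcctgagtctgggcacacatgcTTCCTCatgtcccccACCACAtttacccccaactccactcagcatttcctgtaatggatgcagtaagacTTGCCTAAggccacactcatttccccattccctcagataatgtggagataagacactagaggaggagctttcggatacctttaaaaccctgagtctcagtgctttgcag
Stfa3: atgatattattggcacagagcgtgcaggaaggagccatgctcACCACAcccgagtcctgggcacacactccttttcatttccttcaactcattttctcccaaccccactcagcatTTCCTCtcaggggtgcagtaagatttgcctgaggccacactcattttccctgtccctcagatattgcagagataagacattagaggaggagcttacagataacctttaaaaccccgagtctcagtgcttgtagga

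The Cst7 window held 1 match to TGTGGT, and each of the 5 stefin windows (Stfa1, Stfa2, Stfa2l1, Stfa3 and Cstdc4) held at least 1 match to TGTGGT and 1 to GAGGAA. Of 32851 promoter windows of the same length in the table, 14.05% hold TGTGGT and 23.3% GAGGAA. TTGCNNAA, found in 9.56% of windows, was in Stfa1 and in Slpi, 241 bases before the start, and Cst3 had GAGGAA 230 bases before its start. AAATCA, in 12.4% of windows, was in none of the inhibitor windows searched, and Serpinb6a, with 2 start sites, had no match to any of the 4. The stefin windows were related to one another, 68.7% to 89.4% identical over 10 pairwise alignments, so their shared letters are not independent. Aligned with Cst7 they were 48.1% to 50.7% identical. A match describes letters and does not show binding.

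All levels are log2(TPM + 1), where TPM is an abundance corrected for transcript length and sums to the same total in each cell, so depth is unknown. Differences are the mean over CD11b+ GMP-P cells minus the mean over GMP cells on that log2 scale, called higher or lower from a size of 1. With 1 sample per population, no difference was tested. GMP cells had 5294 ± 801 genes above 0 (SD, n = 46) and CD11b+ GMP-P cells 4112 ± 953 (n = 45), and the 50 most abundant genes of a cell held 26.9% of its TPM in the median GMP cell against 51.2% in the median CD11b+ GMP-P cell. The common genes, 5133 that were above 0 in 50% or more of the GMP or of the CD11b+ GMP-P cells, had a median difference of -1.05, so most genes read lower in CD11b+ GMP-P. Of the labelled gate, Itgam averaged 0.54 in GMP against 3.68 in CD11b+ GMP-P, while Kit, which encodes CD117, averaged 3.65 and 0.90. Ly6a, which encodes Sca-1, averaged 5.51 and 5.74 although the gate was negative for Sca-1. Mean Gfi1 was 5.92 and 3.84 and mean Irf8 was 6.27 and 3.48 in the same order. The R412X change cannot be read from gene levels.

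Of the 7 inhibitors, 1 was higher in CD11b+ GMP-P (Wfdc21), 2 were lower (Cst7 and Cstb) and 4 differed by less than 1. Among the 5133 genes, 3.7% were higher and 51.8% lower by the same size. Read against the median difference of those genes, Serpinb1a, Slpi and Wfdc21 were each higher by 1 or more and Cst7 alone was lower. Of the 5133 genes, 14.9% and 18.6% pass that size in the 2 directions. Serpinb6a passed it too, but it is not among those genes and was at 0 in most cells. A gene at 0 in every cell, such as the protease gene Ctsk, reads 1.05 on that scale, so passing it says little about Serpinb6a. From a size of 2 as measured, Wfdc21 was higher and Cst7 lower, sizes that 1.17% and 19.7% of the genes pass. The median GMP cell had 6 of the 7 inhibitors at 10 TPM or more, and the median CD11b+ GMP-P cell had 5.

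**Figure D1:**
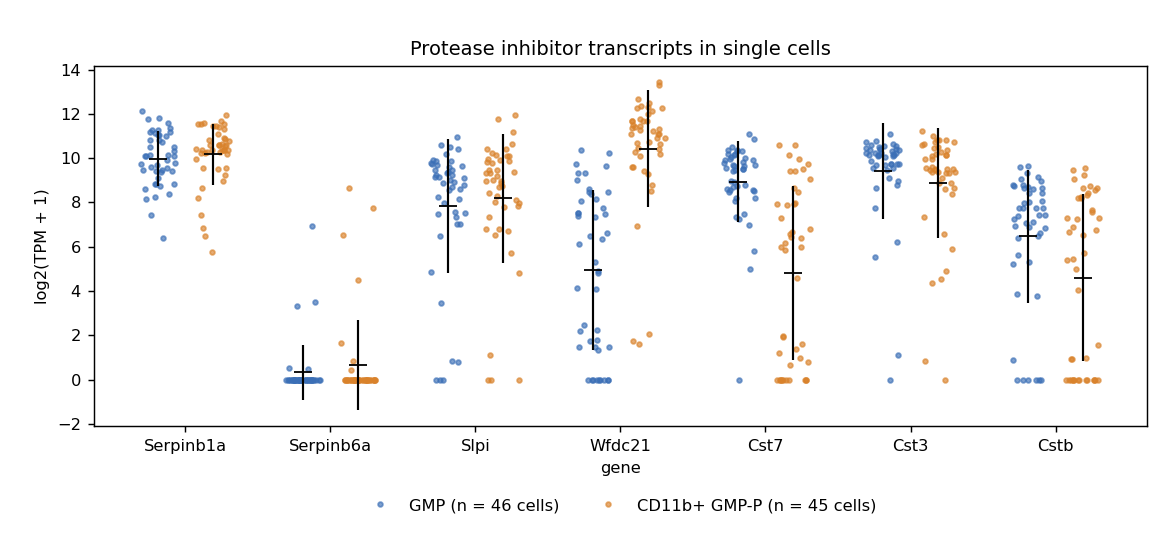
Levels of the 7 inhibitors in single cells, with log2(TPM + 1) on the y axis and 1 point per cell (GMP blue, n = 46, CD11b+ GMP-P orange, n = 45). Horizontal ticks are means and vertical bars 1 SD over cells. Serpinb1a sits high in both populations, Wfdc21 is higher and Cst7 lower in CD11b+ GMP-P, and Serpinb6a is at 0 in most cells.

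Among inhibitors of serine proteases, Serpinb1a was found in every cell. Its product, also called monocyte/neutrophil elastase inhibitor, traps elastase, cathepsin G and proteinase 3. In GMP the lowest, median and highest cells stood at 6.38, 10.09 and 12.12, and in CD11b+ GMP-P at 5.75, 10.38 and 11.96. The ranges overlapped almost entirely, and all 91 cells held at least 10 TPM, a share of 100% with an exact 95% interval of 92.3% to 100% in GMP and 92.1% to 100% in CD11b+ GMP-P (Clopper-Pearson, counting error only). The means were 9.98 ± 1.23 and 10.16 ± 1.39, a difference of 0.19, smaller than either SD. It exceeded 1000 TPM in 24 GMP and 33 CD11b+ GMP-P cells.

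Slpi encodes a secreted inhibitor of elastase and cathepsin G. GMP cells ranged from 0 to 10.96 around a median of 8.99, and CD11b+ GMP-P cells from 0 to 11.97 around the same median of 8.99. The populations overlapped over almost the full range, and each held a few cells at 0. Means of 7.84 ± 3.01 and 8.18 ± 2.90 differed by 0.34. Slpi reached 10 TPM in 40 of the GMP cells (87%, interval 73.7% to 95.1%) and 41 of the CD11b+ GMP-P cells (91.1%, interval 78.8% to 97.5%), each time together with Serpinb1a.

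Serpinb6a, whose product inhibits cathepsin G in the cytosol, was scarce. Its median was 0 in both populations, the highest GMP cell stood at 6.95 and the highest CD11b+ GMP-P cell at 8.63. Only 5 GMP and 7 CD11b+ GMP-P cells were above 0, and 2 and 4 of them reached 10 TPM. Shares of 4.35% (interval 0.531% to 14.8%) and 8.89% (interval 2.48% to 21.2%) overlapped in their counting error. It failed the filter of 50% of cells, so it is no part of the 5133 genes, and its difference of 0.35 rests on single cells.

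Wfdc21 encodes a small WAP-domain protein of the same fold as Slpi. GMP cells ran from 0 through a median of 5.71 to 10.38, and CD11b+ GMP-P cells from 1.61 through 11.11 to 13.44. The ranges overlapped, but the CD11b+ GMP-P median lay above the highest GMP cell. Means were 4.95 ± 3.61 and 10.43 ± 2.65, a difference of 5.48. Its mean TPM was 207 in GMP against 2728 in CD11b+ GMP-P, and at least 1000 TPM was found in 2 GMP cells and 35 CD11b+ GMP-P cells. Among the 26 GMP and 21 CD11b+ GMP-P cells whose number of genes above 0 fell between 3946.75 and 5645, a range both populations share, the difference was 5.05.

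Among the cystatins, Cst7 differed most. It encodes cystatin F, which is targeted to endosomes and lysosomes of immune cells. GMP cells ran from 0 through a median of 9.52 to 11.09, and CD11b+ GMP-P cells from 0 through 5.98 to 10.58. GMP cells were crowded near the top with 1 cell at 0. CD11b+ GMP-P cells were spread out, some at high levels that overlapped GMP, some at or near 0 and others in between, around the median. The means were 8.94 ± 1.84 and 4.81 ± 3.92, a difference of -4.13, and the median level went with 731 TPM in GMP and 62.3 TPM in CD11b+ GMP-P. Cst7 reached 10 TPM in 45 GMP cells (97.8%, interval 88.5% to 99.9%) and 26 CD11b+ GMP-P cells (57.8%, interval 42.2% to 72.3%). In the shared range of genes above 0 the difference was -2.44, and as a log2 ratio of mean TPM it was -1.53.

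Cst3 encodes cystatin C, the broadly expressed secreted inhibitor of cysteine cathepsins. GMP cells had a lowest value of 0, a median of 10.13 and a highest of 11.10, and CD11b+ GMP-P cells 0, 9.50 and 11.23. Nearly all cells of both populations were high, and the difference of -0.53 between 9.41 ± 2.18 and 8.88 ± 2.49 was smaller than either SD. It reached 10 TPM in 44 GMP and 43 CD11b+ GMP-P cells. Without the 9 GMP cells of the smaller cluster described further on, the difference was -1.02.

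Cstb encodes cystatin B, a cytosolic and nuclear inhibitor of cathepsins. GMP cells ran from 0 through 7.43 to 9.65, and CD11b+ GMP-P cells from 0 through 5.70 to 9.56. The highest cells were alike, and more CD11b+ GMP-P cells lay at or near 0. Means of 6.46 ± 3.02 and 4.60 ± 3.78 gave a difference of -1.86, and the cells at 10 TPM or more numbered 39 (84.8%, interval 71.1% to 93.7%) and 27 (60%, interval 44.3% to 74.3%). Within the shared range of genes above 0 the difference was -0.074, so the call did not hold there.

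By mean level per transcript length, GMP cells ranked Serpinb1a, Cst3, Cst7, Slpi, Cstb, Wfdc21 and Serpinb6a from high to low. Each neighbour differed from the next by less than the larger of their SDs except Wfdc21 and Serpinb6a. In CD11b+ GMP-P the order was Wfdc21, Serpinb1a, Cst3, Slpi, Cst7, Cstb and Serpinb6a, and again only the last step, from Cstb to Serpinb6a, was larger than the SD. Serpinb1a, Cst3 and Slpi kept their order, with Cst7 and Wfdc21 moving around them. At 10 TPM, both were present in 28 GMP and 24 CD11b+ GMP-P cells, Cst7 without Wfdc21 in 17 and 2, Wfdc21 without Cst7 in 0 and 18, and neither in 1 and 1.

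The granule serine proteases were lower in CD11b+ GMP-P, where Serpinb1a, Serpinb6a and Slpi differed by less than 1. Elane averaged 13.76 ± 2.45 in GMP against 10.70 ± 4.67 in CD11b+ GMP-P (difference -3.06). Its medians were closer, 14.49 and 13.46, because CD11b+ GMP-P cells ran down to 2.77. Prtn3 averaged 11.52 ± 2.26 and 9.10 ± 3.96 (difference -2.42) and Ctsg 11.27 ± 2.37 and 6.15 ± 4.70 (difference -5.11). Prss57, a related granule serine protease, differed by -2.81 and Mcpt8, a basophil protease, by -2.22. Of the 7 listed serine proteases, 5 were above 0 in 10% or more of the GMP or of the CD11b+ GMP-P cells and all 5 were lower, also relative to the median of common genes. Over all 10030 genes that passed that filter, 2.45% were higher and 29.9% lower.

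Cysteine proteases, the targets of cystatins, were lower in part. Ctsz (cathepsin Z) averaged 8.83 ± 2.56 and 5.59 ± 3.73, a difference of -3.24, and Ctsc (cathepsin C) 4.96 ± 3.25 and 2.44 ± 3.28, a difference of -2.51. Ctss differed by -2.74 and Ctsl by -1.72, whereas Ctsb (-0.81) and Ctsh (-0.47) differed by less than 1. Of 11 listed genes 7 passed the 10% filter, with 0 higher, 4 lower and 3 within 1 (2.45% higher and 29.9% lower over all genes at that filter), and relative to the median of common genes Ctsl was no longer lower by 1. Cathepsin D (Ctsd), an aspartic protease that cystatins do not block, differed by -1.28. Among metalloproteases Mmp8, neutrophil collagenase, was higher by 3.24 (5.18 ± 3.62 and 8.42 ± 3.08), and Mmp9 was above 10 TPM in 0 GMP and 4 CD11b+ GMP-P cells.

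Set against one another within single cells, serine protease transcripts far exceeded those of their inhibitors in GMP. The log2 ratio of Serpinb1a, Serpinb6a and Slpi, summed in TPM, to Elane, Prtn3 and Ctsg, with 1 TPM added to each sum, had a lowest, median and highest value of -6.16, -4.03 and 5.13 in GMP. In CD11b+ GMP-P these were -5.27, -1.92 and 7.79. The inhibitor sum was above the protease sum in 2 GMP cells and in 17 CD11b+ GMP-P cells. Within the shared range of genes above 0 the medians were -3.78 in GMP (26 cells) and -3.46 in CD11b+ GMP-P (21 cells), a smaller gap than over all cells. The sums of Serpinb1a, Serpinb6a and Slpi were similar, with medians of 1675 TPM in GMP against 2226 TPM in CD11b+ GMP-P. The protease side had medians of 31436 and 12133 TPM. Wfdc21 was not part of the inhibitor sum, and its own medians were 53.6 TPM in GMP and 2212 TPM in CD11b+ GMP-P. Transcript sums say nothing of protein amounts or enzyme activity.

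The cysteine side was nearer balance. The sum of Cstb, Cst3 and Cst7 over that of Ctsb, Ctsc, Ctsh, Ctsl, Ctss and Ctsz had a median log2 ratio of 0.33 in GMP (range -1.18 to 3.03) and 1.12 in CD11b+ GMP-P (range -4.02 to 7.79). The cystatin sum was the larger in 29 and 35 cells. Both sums had lower medians in CD11b+ GMP-P, 1321 against 1886 TPM for the cystatins and 525 against 1597 TPM for the cathepsins, and the ratios of the populations overlapped widely.

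**Figure D2:**
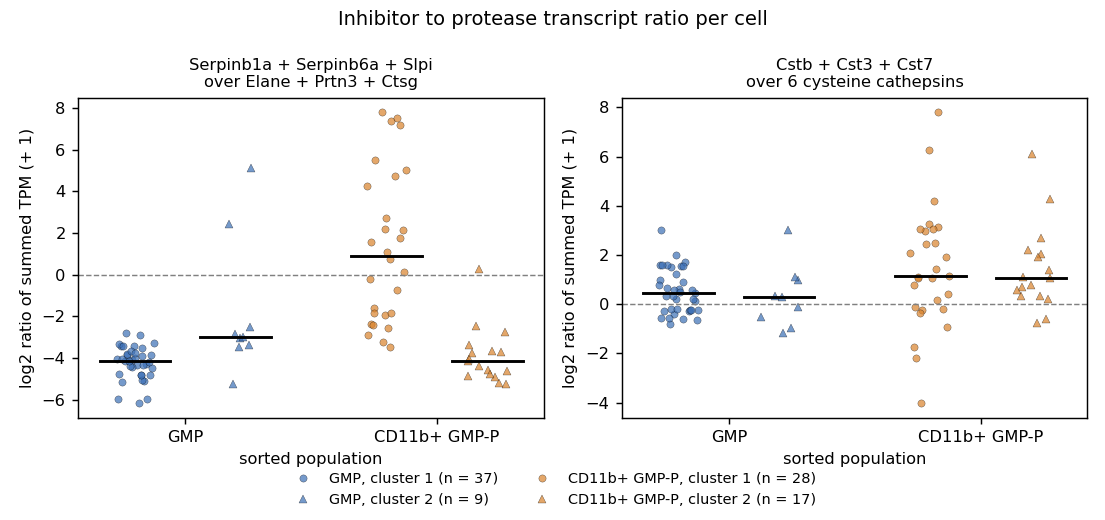
Log2 ratio of summed inhibitor to summed protease TPM per cell, serine side on the left and cysteine side on the right, with 1 point per cell, circles for cluster 1 and triangles for cluster 2 of each population, and bars at cluster medians. On the serine side cluster 1 of CD11b+ GMP-P has a median of 0.92 and the other clusters lie at -2.97 or below.

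The cells of each population were also described in clusters. Clustering of each population on its 500 most variable genes, with the inhibitors and proteases left out, split CD11b+ GMP-P into 28 cells led by the late granule genes Ngp, Camp and Ltf (cluster 1) and 17 cells led by Srgn, Mif and Mt1 (cluster 2). At least 2 clusters were always made, so the split does not show that the cells are of separate kinds. Its mean silhouette, a measure of how well clusters separate, was 0.253. The clusters were formed on genes of the same cells, so the values that follow are descriptions. Wfdc21 averaged 11.58 ± 0.93 in cluster 1 and 8.53 ± 3.41 in cluster 2. Cst7 averaged 2.88 ± 3.36 and 7.99 ± 2.45 and reached 10 TPM in 10 of 28 and 16 of 17 cells. Thus the cells with high Cst7 lay mainly in cluster 2, whose mean was within 1 of the GMP mean. Cstb averaged 3.25 ± 3.66 and 6.84 ± 2.86 and Cst3 8.34 ± 2.82 and 9.78 ± 1.47, both lower in cluster 1. Serpinb1a (10.11 ± 1.59 and 10.26 ± 1.01) and Slpi (8.07 ± 3.20 and 8.36 ± 2.43) differed by less than 1 between the clusters. That held for Serpinb1a under each clustering setting tried, but for Slpi the Camp-rich cluster minus the other was -1.601 with 5 principal components and -1.39 with granule genes left out too. Elane went with Cst7, at 8.53 in cluster 1 and 14.28 in cluster 2, and so did Ctsg, at 3.20 and 11.02. Cluster 1 cells had a median of 3782 genes above 0 and cluster 2 cells 4782, and the part of that gap in these values was not tested.

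On the serine side, 16 of the 28 cells of cluster 1 and 1 of the 17 cells of cluster 2 had more inhibitor than protease transcript. The 1 cell of cluster 2 was rich in eosinophil marker transcripts and is described in the closing section. The median ratio of cluster 2, -4.14, was that of the larger GMP cluster, also -4.14. The 9 cells of the smaller GMP cluster, led by Serinc1, Coa4 and Cpa3, had a median of -2.97 and included both GMP cells above 0. Cpa3 is a mast cell and basophil gene, and that cluster was not stable to the clustering settings. The 2 GMP cells with a ratio above 0 had 2796 and 3067 genes above 0, the fewest of any GMP cells. Elane stood at only 4.08 and 3.66 in them.

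Wfdc21 went with Elane across GMP cells and against it across CD11b+ GMP-P cells, and Cst7 went with it in CD11b+ GMP-P. Spearman's correlation coefficient across cells of Wfdc21 with Elane was 0.76 in GMP (n = 46) against -0.64 in CD11b+ GMP-P (n = 45). That of Cst7 with Elane was 0.07 in GMP against 0.79 in CD11b+ GMP-P. Cells of a population share a sort and a genotype, and genes also vary with how many genes a cell has above 0, so these coefficients are descriptions. Over genes present in 50% or more of a population's cells, the median coefficient with Elane was 0.07 in GMP against 0.30 in CD11b+ GMP-P. The coefficient with the number of genes above 0 was 0.23 and -0.57 for Wfdc21 and 0.07 and 0.68 for Cst7. Given that number as a covariate, the CD11b+ GMP-P values were -0.36 for Wfdc21 and 0.54 for Cst7.

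**Figure D3:**
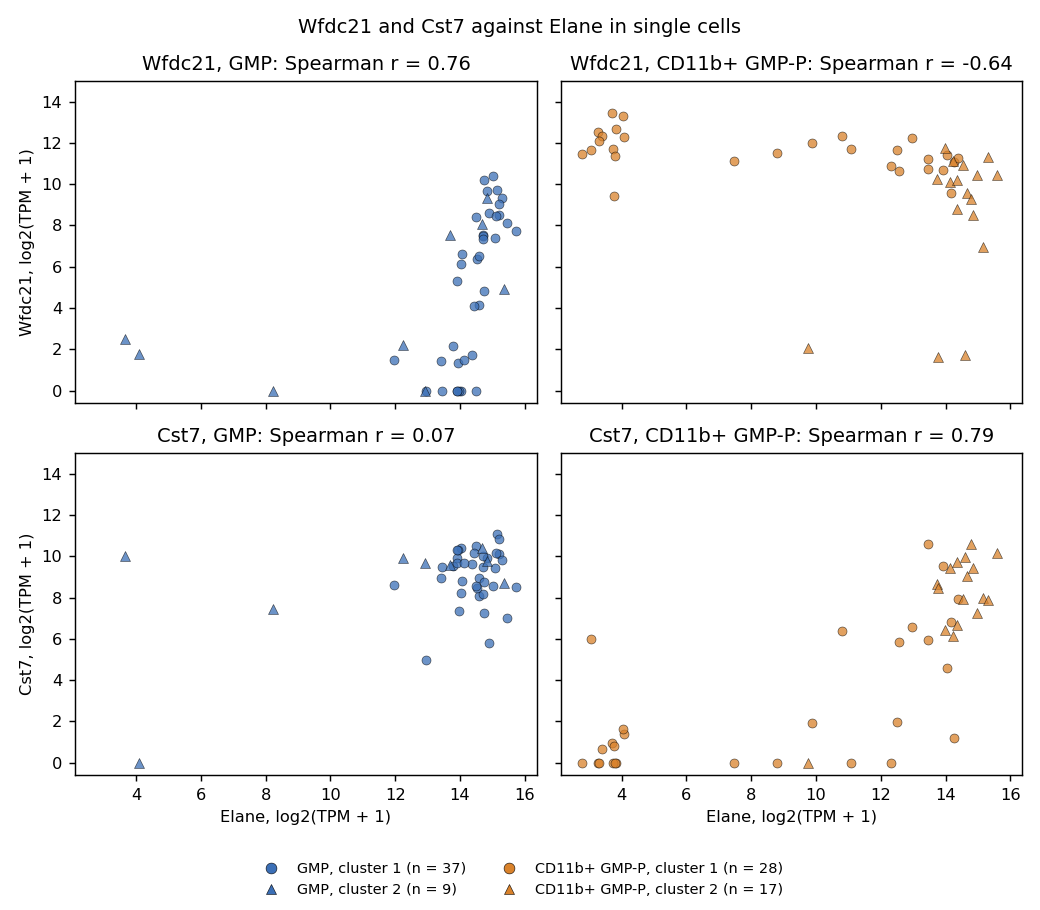
Wfdc21 (top) and Cst7 (bottom) against Elane in single GMP (left, n = 46) and CD11b+ GMP-P (right, n = 45) cells, all axes in log2(TPM + 1), with symbols for the clusters. In GMP Wfdc21 tends to rise with Elane, though some cells with high Elane have Wfdc21 at or near 0. In CD11b+ GMP-P the cells with little Elane have high Wfdc21 and, with 1 exception near 6, Cst7 at or near 0.

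Wfdc21 kept company with S100a8, a calprotectin subunit gene, in both populations, with coefficients of 0.84 in GMP and 0.82 in CD11b+ GMP-P. With Camp, which encodes the cathelicidin of secondary granules, the coefficient was 0.12 in GMP against 0.73 in CD11b+ GMP-P. Camp reached 1000 TPM in 0 GMP and 27 CD11b+ GMP-P cells, so the GMP coefficient covers low Camp levels only. Within CD11b+ GMP-P the coefficient of Wfdc21 with Elane was -0.52 in cluster 1 and 0.15 in cluster 2. Cst7 and Elane had coefficients of 0.63 and 0.37 there, and Cst7 with Prtn3 and Ctsg across all CD11b+ GMP-P cells had 0.76 and 0.68. Wfdc21 and Cst7 had a coefficient of 0.12 with each other in GMP and -0.58 in CD11b+ GMP-P.

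Serpinb1a, Slpi and the broadly expressed cystatins were set against the same proteases. Serpinb1a and Elane had a coefficient of 0.60 in GMP against 0.13 in CD11b+ GMP-P, and Serpinb1a and Ctss -0.47 and -0.21. Slpi and Elane had 0.43 and 0.26. Cstb and Elane had 0.23 and 0.49, but 0.070 in CD11b+ GMP-P with the number of genes above 0 as a covariate. Cst3 and Elane had 0.07 and 0.27, and Cst3 and Ctsc 0.16 and 0.46.

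**Figure D4:**
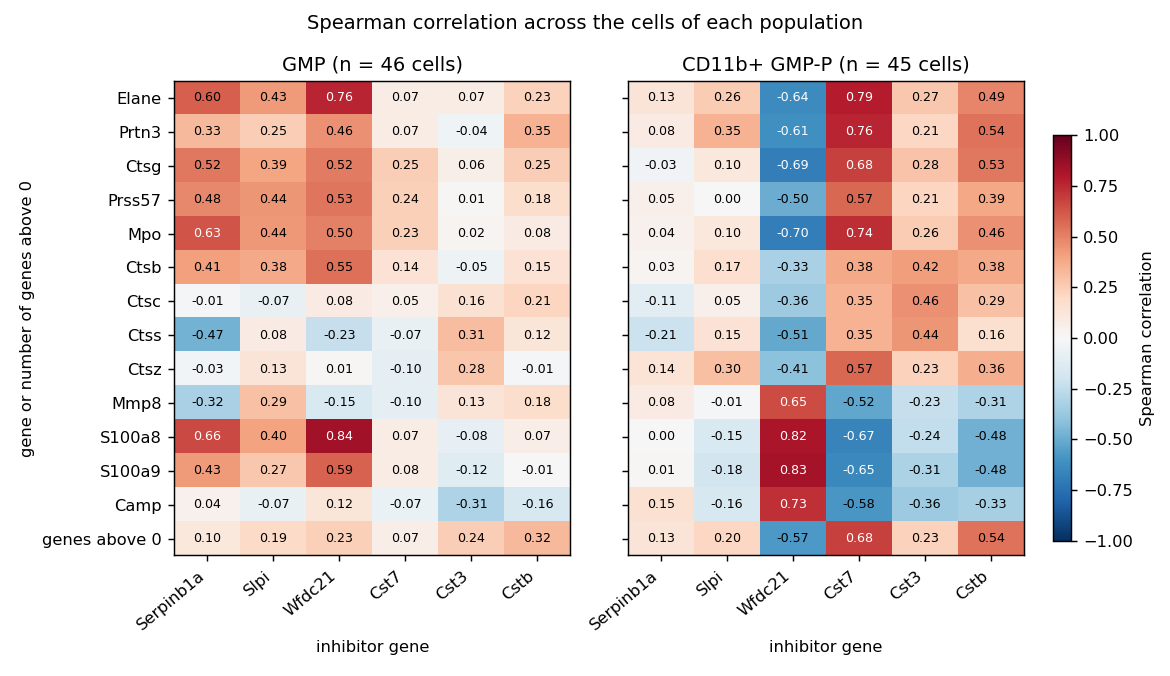
Spearman's correlation coefficient of 6 inhibitors (columns) with proteases, granule genes and the number of genes above 0 (rows) across the cells of each population, from -1 (blue) to 1 (red). The Wfdc21 column runs from 0.76 with Elane in GMP to -0.64 in CD11b+ GMP-P, and the Cst7 column from 0.07 to 0.79.

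The genes most like each inhibitor were sought by Spearman's correlation coefficient among 5000 genes in GMP and 3313 in CD11b+ GMP-P, those above 0 in 50% or more of its cells. The highest of so many coefficients over few cells are large by selection, and whether they exceed those of unrelated genes was not tested. Median coefficients over all these genes were 0.03 in GMP and -0.22 in CD11b+ GMP-P for Wfdc21, and 0.02 and 0.25 for Cst7. For Wfdc21 the top genes were S100a8 (0.84), Elane (0.76) and Mgam (0.70) in GMP and S100a9 (0.83), S100a8 (0.82) and Lcn2 (0.80) in CD11b+ GMP-P. Cst7 had Ccdc23 (0.47), Mrpl19 (0.47) and Brd2 (0.45) in GMP, and Elane (0.79), Hells (0.77) and Prtn3 (0.76) in CD11b+ GMP-P. Serpinb1a had Slc28a2 (0.71), Ifngr1 (0.67) and S100a8 (0.66), then Ppp1r15b (0.51), Spg21 (0.51) and Tmbim4 (0.50). Slpi had C3 (0.61), Syne1 (0.60) and Gm1604b (0.58), then Nfkbia (0.48), Tuba4a (0.48) and Supt5 (0.48). Thus S100a8 was among the 3 nearest genes of Wfdc21 in both populations, and no other pair recurred for these inhibitors. Cstb had Nlrp1a (0.61), Nop58 (0.58) and Gm5148 (0.56) in GMP, and Mrps16 (0.67), Mrpl36 (0.66) and Ide (0.63) in CD11b+ GMP-P. Cst3 had Immp1l (0.55), C330021F23Rik (0.54) and Emc8 (0.54), then Napsa (0.53), Ftl1 (0.51) and Suv420h1 (0.51). Serpinb6a, above 0 in few cells, had Impdh2 (0.46), Etfdh (0.45) and Mterfd1 (0.43), then Taf12 (0.48), 1190002F15Rik (0.47) and Vamp5 (0.44).

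Of 93 other inhibitor genes listed (serpins, cystatins and stefins, and further families), 56 were at 0 in every cell and 19 passed the filter of 10% of cells. Of these 19, 4 were higher, 3 lower and 12 within 1, with a median difference of -0.01. Against the same filter over all genes, 2.45% were higher and 29.9% lower. Stfa2, Stfa2l1 and Stfa3 passed the filter only through CD11b+ GMP-P and Serpinf1 only through GMP, so the filter partly sets their directions. The 3 lower genes were Spint2, a Kunitz inhibitor (5.11 ± 2.99 and 3.33 ± 3.31, difference -1.78), Serpine2, protease nexin 1 (4.25 ± 3.50 and 2.81 ± 2.98, difference -1.44), and Serpinf1 (difference -1.30). Serpina3g differed by -0.85, Birc3 by -0.48, and Cast, which encodes the calpain inhibitor calpastatin, by -0.40.

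All 4 higher genes were stefins or stefin-like, cytosolic cystatins clustered on chromosome 16 in the mouse. Cstdc4, listed as BC100530, averaged 0.29 ± 0.66 in GMP against 3.98 ± 5.11 in CD11b+ GMP-P, with 0 and 16 cells at 10 TPM or more and a highest cell of 13.55. Stfa1 differed by 2.61 (0 and 12 cells), Stfa3 by 1.62 (0 and 9 cells) and Stfa2l1 by 1.35 (0 and 9 cells, and listed at 0 in every GMP cell). Stfa2 differed by 0.65 and reached 10 TPM in 0 and 3 cells. Taken as a family of 5, at least 1 member reached 10 TPM in 0 of 46 GMP cells, which allows a share of up to 6.52% (the 3 cells that a count of 0 allows, counting error only), and in 20 CD11b+ GMP-P cells, 19 of these in cluster 1 and 1 in cluster 2. The highest sum in a cell was 3.84 TPM in GMP and 16818 TPM in CD11b+ GMP-P. Camp was at 1000 TPM or more in 19 of the 20, and median Elane was 1353 TPM in them and 18446 TPM in the other CD11b+ GMP-P cells. These genes are closely related copies, reads may have been split among them, and which copy a cell expressed is uncertain.

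**Figure D5:**
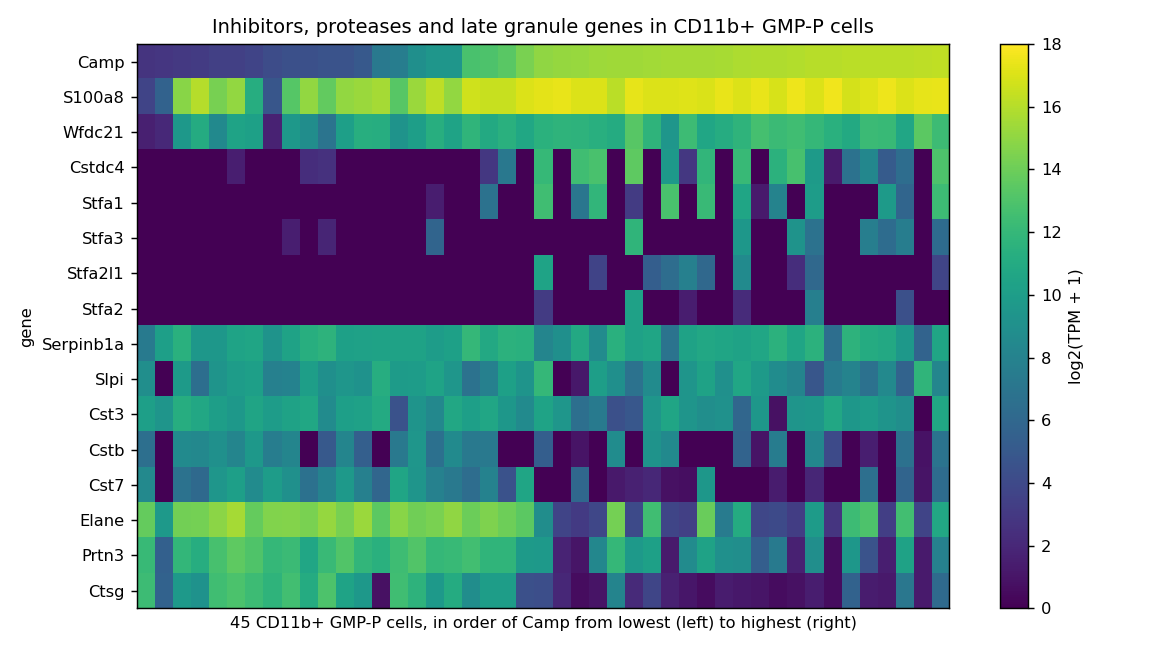
Log2(TPM + 1) of late granule genes, stefins, inhibitors and serine proteases in the 45 CD11b+ GMP-P cells, 1 column per cell ordered by Camp. Stefins reach 10 TPM in 20 cells that are mostly at the high Camp end, where Cst7, Elane and Ctsg are mostly low and Wfdc21 is high.

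Markers of other cell types were summed in TPM for each cell. The counts of marker genes that follow stand beside 2.45% higher and 29.9% lower over all genes at the 10% filter. The 15 monocyte markers had a median of 739 TPM in GMP (range 0.19 to 7073) and 401 TPM in CD11b+ GMP-P (range 0.17 to 3302), with 7 of 12 measured genes lower and 1 higher. Spearman's coefficient with that sum was -0.45 for Serpinb1a in GMP, -0.40 and -0.41 for Wfdc21 in GMP and CD11b+ GMP-P, and -0.083 and 0.39 for Cst7. The 10 lymphoid markers had medians of 2454 TPM (range 3.44 to 7480) and 1017 TPM (range 0 to 6230), with 2 of 2 measured genes, Nkg7 and Cd79b, lower, and Cd3e and Cd79a at 0 in every cell. Only 3 of the 10 were above 0 in any GMP cell and 2 in any CD11b+ GMP-P cell. Nkg7 averaged 11.35 in CD11b+ GMP-P cluster 2 and 5.62 in cluster 1. The lymphoid sum thus rests on few genes and does not show lymphoid cells. It went at 0.71 with Cst7 and -0.59 with Wfdc21 in CD11b+ GMP-P, and at 0.21 and 0.47 in GMP. The 10 basophil and mast cell markers had medians of 462 TPM (range 0.78 to 25969) and 26.8 TPM (range 0 to 1560), with Tpsb2 at 0 in every cell. Dendritic cell markers had medians of 63.1 and 0.8 TPM, with Cd74 and H2-Aa at 0. Of 20 secondary and late granule genes, 18 of 19 measured were higher in CD11b+ GMP-P, with a median difference of 4.40, and of 15 primary granule genes 12 of 14 measured were lower, with a median of -2.66. These sums differed between the populations as Wfdc21 and Cst7 did, and their part in the inhibitor differences was not tested.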

How the data were processed

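The authors deposited log2 values for 23956 gene symbols in 91 single cells. After returning to linear scale and removing a pseudocount of 1, each cell summed to between 999999 and 1000080, so the values were log2(TPM + 1). RSEM (version unstated) and build mm9 appear in the submitters' processing notes. No aligner or annotation is given in the sources used here. Per the labels' protocols, cells were captured on a Fluidigm C1, cDNA was made with SMARTer and libraries with Nextera XT, so reads have neither molecular identifiers nor strand. In all, 80.3% of values were 0, and TPM keeps no depth. No 2 cells correlated above 0.736, and no cell was left out.

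Cells were grouped by their labels. Differences are means over cells of log2(TPM + 1), CD11b+ GMP-P minus GMP, called from a size of 1, with no test. Clustering took the 500 genes of greatest variance among those detected in 20% or more of a population's cells, 10 principal components and Ward linkage, with the inhibitor and protease lists left out, choosing between 2 and 5 clusters by silhouette. No doublet caller was run, and an alternative left out the 5% of cells with the most genes. The inhibitors and all lists were chosen with earlier results of these data known, Bin1 was removed from a list after its values were seen because it encodes no protease inhibitor, and motifs were chosen with the promoters at hand. Named genes were all 7 inhibitors, the listed serine and cysteine proteases above 0 in at least 50% of a population's cells with Mmp8, Mmp9 and Ctsd, the 6 highest other inhibitors of each population, the 4 with the largest difference in each direction, and the 3 genes nearest each inhibitor by Spearman's coefficient. Mcpt8, Stfa2, Mpo, S100a8, S100a9 and Camp, and the subset of 16 and 12 cells in the closing section, were added after values were seen. Alternatives were pseudocounts of 0.1 and 10, ratios of mean TPM, median of ratios scaling over 948 genes, removal of the 50 highest genes, a shared range of genes detected (bounded below by the 5th percentile in GMP and above by the 95th in CD11b+ GMP-P), other floors, sizes, filters and clustering settings, and, added after seeing the data, leaving out 9 GMP cells or 1 CD11b+ GMP-P cell. RefSeq promoters (GRCm38.p6) matched 4 of the 7 inhibitors and 5 of 5 stefins by symbol. The calculation was tested on simulated data. Python 3.11.15, pandas 2.3.3, scipy 1.17.1 and scikit-learn 1.9.0 were used.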

Additional observations from a re-analysis of the deposited data

How the results depend on the processing

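Of 237 alternative values, 188 kept their direction and call or moved by less than the spread. Relative to the median of common genes, the differences were 1.23 for Serpinb1a, 1.40 for Serpinb6a, 1.39 for Slpi and -0.81 for Cstb, so 4 inhibitors were higher and 1 lower. The 4 include Serpinb6a, which was at 0 in most cells, and a gene at 0 in every cell reads 1.05 on that scale. With median of ratios scaling Serpinb1a was at 1.04 and Slpi at 1.09, and 3 were higher. As log2 ratios of mean TPM, Serpinb6a was at 2.07, Cstb at -0.55 and Cst7 at -1.53, with 2 higher and 1 lower. In the shared range of genes detected Cstb was at -0.074 and 1 was lower. A size of 2 left 1 lower. These scalings moved the median of common genes from -1.05 to -0.54 for ratios of means, -0.63 for median of ratios and -0.44 for the shared range. Without the 9 GMP cells of the smaller cluster Cst3 was at -1.02 and 3 inhibitors were lower, a count included in the 188 although it changed. Over genes above 0 in at least 10% of cells, 2.45% were higher and 29.9% lower.

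With Pearson's coefficient in GMP, Elane went at 0.44 with Wfdc21, 0.45 with Cst7, 0.73 with Slpi, 0.51 with Cstb and 0.76 with Cst3, and in CD11b+ GMP-P at -0.37 with Wfdc21 and 0.37 with Serpinb1a. In the shared range (26 GMP and 21 CD11b+ GMP-P cells) Spearman's coefficient with Elane was -0.14 for Cst3 in GMP, and in CD11b+ GMP-P -0.30 for Wfdc21, 0.56 for Cst7, -0.23 for Serpinb1a and -0.10 for Cstb. The coefficients of Cst3 in GMP and of Serpinb1a and Cstb in CD11b+ GMP-P thus changed sign. Given genes detected as a covariate, it was -0.36 for Wfdc21, 0.54 for Cst7 and 0.070 for Cstb. The cause of these shifts was not tested. With the granule lists left out too, GMP gave 5 clusters and no matching value. No paired analysis was possible because no animal is named, and no test was made. Depth is unknown, so a value of 0 may be a missed transcript.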

Other observations

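The line between the CD11b+ GMP-P clusters moved with the settings. With 5 principal components 12 of the 28 cells led by Ngp, Camp and Ltf left that cluster. These 12, a set defined after the values were seen, had means of 5.08 for Cst7, 13.07 for Elane, 5.46 for Ctsg and 11.08 for Wfdc21, on the log2(TPM + 1) scale. The 16 cells that stayed had 1.23 for Cst7, 5.13 for Elane, 1.51 for Ctsg and 11.96 for Wfdc21, and the 17 cells of the other cluster had 7.99, 14.28, 11.02 and 8.53. Wfdc21 was thus high in the 12 cells in which Elane was also high, and Cst7 and Ctsg stood between the other sets. Slpi had means of 9.29 in the 12 cells, 7.15 in the 16 and 8.36 in the 17, and Serpinb1a 10.67, 9.68 and 10.26, so neither followed that order. Median genes above 0 were 4138.5 in the 12 cells, 3244.5 in the 16 and 4782 in the 17.

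One CD11b+ GMP-P cell held 132807 TPM of eosinophil marker transcripts, 13.3% of its total, with Prg2, the eosinophil major basic protein gene, at 16.97, and the next highest cell held 724 TPM. In it Serpinb1a stood at 10.18 and Cst3 at 9.36, Wfdc21 at 2.05, and Cst7, Slpi and Cstb at 0. It was 1 of the 3 CD11b+ GMP-P cells at 0 for Slpi. It was also the 1 cell of cluster 2 with more serine protease inhibitor than protease transcript, at a log2 ratio of 0.29, and had 3084 genes above 0. Leaving it out changed no call on the inhibitors.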
